A study of Mus musculus with 10 samples.

Results

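The genes described here encode the machinery of macroautophagy and its transcriptional regulator TFEB. They were chosen by name, as the rows of the deposited gene table whose GENCODE M21 symbol was on a list of 36 genes, and all 36 were found among 53392 rows. RNA had been sequenced from snap-frozen livers of C57BL/6 mice at 24 weeks of age. One group was Fbp1-deleted, with loss of fructose-1,6-bisphosphatase 1, an enzyme of gluconeogenesis, in the liver (n = 5, replicates 6 to 10), and the other was wild type (WT, n = 5, replicates 1 to 5). The groups shared strain, age and tissue. The way of deletion, the sex of the mice, their feeding state and the hour of collection were unstated in the labels.

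Autophagy encloses cytoplasm in a double membrane, the autophagosome, and delivers it to the lysosome for breakdown. In liver it is known to supply amino acids, lipids and glucose precursors during fasting. The ULK1 kinase complex starts the process, a phosphatidylinositol 3-kinase complex built on Beclin 1 marks the membrane, and ATG2 and ATG9 proteins bring lipid to it. Conjugation reactions, in which ATG12 is joined to ATG5 and members of the LC3 and GABARAP family to a membrane lipid, make the membrane able to bind cargo receptors such as p62. The kinase mTOR, as part of mTORC1, restrains ULK1 and keeps TFEB and TFE3, which switch on autophagy and lysosomal genes, out of the nucleus.

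Levels are given as CPM, the estimated counts of a gene scaled to a common library size after TMM normalization. Changes are log2 ratios of Fbp1-deleted over WT, given with the fitted standard error (SE), and a gene rose or fell where the Benjamini-Hochberg adjusted p was under 0.05 by edgeR's quasi-likelihood test over 15392 genes. Library totals lay between 17778395 and 23894812 estimated counts, and a member held between 41 counts (the lowest of Atg10) and 11635 counts (the highest of Sqstm1). The Fbp1 level was 7.38 to 13.4 CPM in Fbp1-deleted livers and 778 to 1050 CPM in WT livers. The hepatocyte markers Alb, Apoa1, Ttr, Serpina1a, Hnf4a and Cyp2e1 stood at 502 CPM or more in all 10 libraries. On the first principal component Fbp1-deleted replicate 8 scored 6.39, the other 4 Fbp1-deleted livers between 35.3 and 54.5, and WT livers between -46.6 and -18.2.

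In Fbp1-deleted liver 8 of the 36 members were higher and 2 were lower. Of all genes tested 20.6% were called in either direction, 10.6% as higher and 10% as lower, against 27.8%, 22.2% and 5.56% of the members. Over all 15392 genes tested, 5324 had an unadjusted p under 0.05 in either direction, the background for such counts below. The members that rose were Ulk1, Atg13 and Rb1cc1 of the initiation complex, Uvrag of the phosphatidylinositol 3-kinase complex, Atg16l2, the cargo receptors Sqstm1 and Nbr1, and Mtor. Atg3 and Gabarapl1, which both act in the joining of LC3-type proteins to lipid, fell. The remaining 26 did not pass, Tfeb, Becn1 and Map1lc3b among them. The median fitted change was 0.13 over the members and 0.01 over all genes tested. Livers of the groups did not overlap for 11 members (30.6%), against 13.5% of all genes. Of these 9 were higher in all Fbp1-deleted livers and 2 lower, against 6.57% and 6.89% of all genes.

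**Figure D1:**
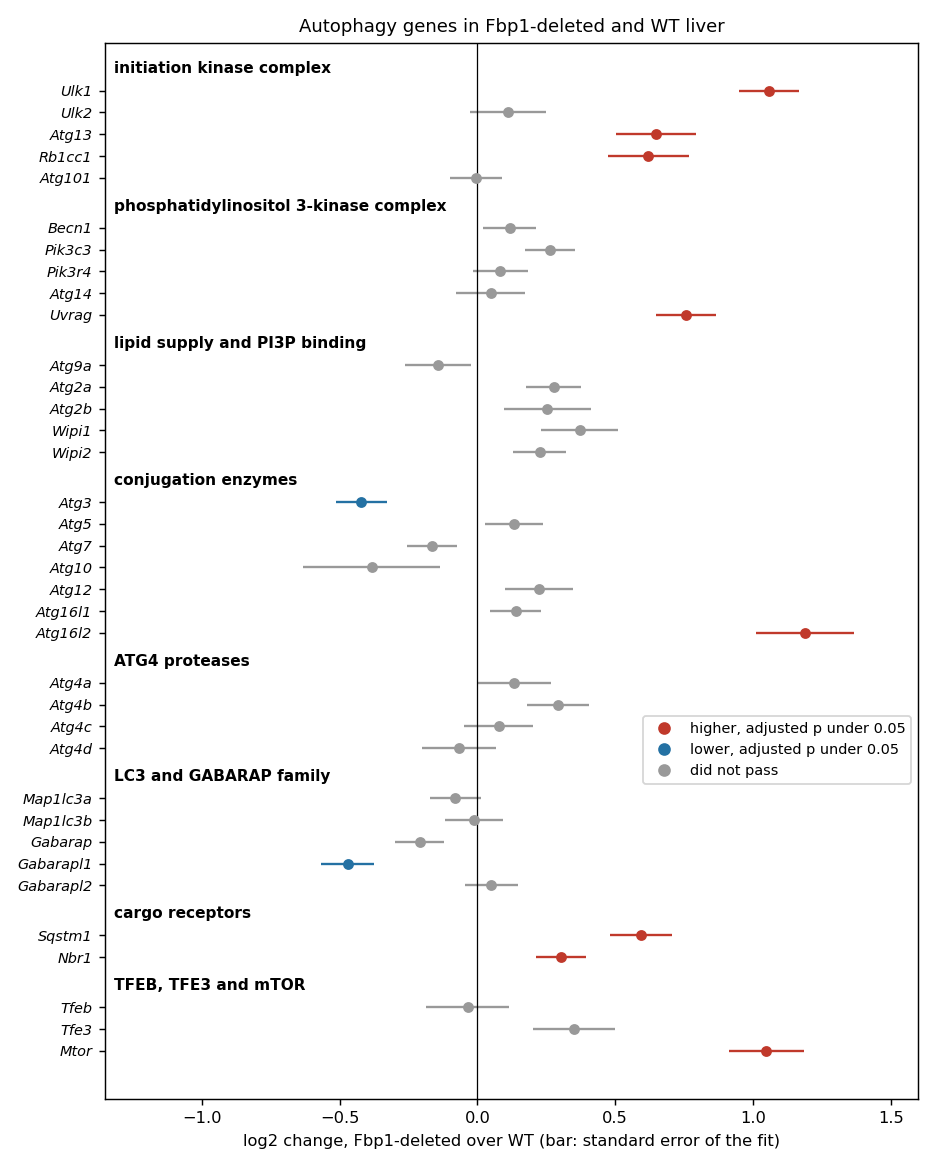
Fitted log2 change, Fbp1-deleted over WT, of each of the 36 members in blocks by role, with bars for the standard error of the fit. Ulk1, Atg16l2 and Mtor lie beyond 1, and Atg3 and Gabarapl1 are the only members marked as lower.

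Promoter windows are shown for the 4 members that rose with the smallest adjusted p (Ulk1, Mtor, Uvrag and Atg16l2) and for both that fell (Gabarapl1 and Atg3), so that the letters of the groups can be compared. Each RefSeq window (GRCm38.p6) runs from 250 bases before to 50 bases after the annotated start, 5′ to 3′ on the gene's strand, and capitals mark a match to 1 of 4 motifs.
Ulk1: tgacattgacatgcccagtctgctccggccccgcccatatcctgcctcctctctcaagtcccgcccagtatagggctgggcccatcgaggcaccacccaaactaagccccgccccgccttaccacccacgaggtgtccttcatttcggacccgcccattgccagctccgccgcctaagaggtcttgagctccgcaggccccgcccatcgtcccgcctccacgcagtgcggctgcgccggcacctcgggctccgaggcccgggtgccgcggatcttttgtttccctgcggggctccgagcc
Mtor: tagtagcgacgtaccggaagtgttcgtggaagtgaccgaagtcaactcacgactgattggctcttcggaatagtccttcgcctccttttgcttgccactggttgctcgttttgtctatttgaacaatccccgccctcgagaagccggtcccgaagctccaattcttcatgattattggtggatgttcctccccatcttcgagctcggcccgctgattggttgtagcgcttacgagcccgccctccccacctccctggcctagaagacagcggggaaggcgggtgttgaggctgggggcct
Uvrag: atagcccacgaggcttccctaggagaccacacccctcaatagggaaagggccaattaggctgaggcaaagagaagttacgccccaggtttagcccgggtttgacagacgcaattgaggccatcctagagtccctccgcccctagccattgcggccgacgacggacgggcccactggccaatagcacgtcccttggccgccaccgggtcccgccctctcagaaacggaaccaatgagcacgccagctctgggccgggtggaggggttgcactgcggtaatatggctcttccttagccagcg
Atg16l2: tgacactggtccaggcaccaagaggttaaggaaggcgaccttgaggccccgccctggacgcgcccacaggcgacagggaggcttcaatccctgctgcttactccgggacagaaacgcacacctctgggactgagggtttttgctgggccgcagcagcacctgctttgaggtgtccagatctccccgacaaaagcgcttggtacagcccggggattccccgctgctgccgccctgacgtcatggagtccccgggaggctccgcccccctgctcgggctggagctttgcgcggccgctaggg
Gabarapl1: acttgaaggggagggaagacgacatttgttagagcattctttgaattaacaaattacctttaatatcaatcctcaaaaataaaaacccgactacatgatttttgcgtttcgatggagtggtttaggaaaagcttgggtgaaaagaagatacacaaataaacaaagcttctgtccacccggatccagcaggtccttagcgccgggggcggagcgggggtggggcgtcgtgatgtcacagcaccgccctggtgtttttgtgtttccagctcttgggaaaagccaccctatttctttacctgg
Atg3: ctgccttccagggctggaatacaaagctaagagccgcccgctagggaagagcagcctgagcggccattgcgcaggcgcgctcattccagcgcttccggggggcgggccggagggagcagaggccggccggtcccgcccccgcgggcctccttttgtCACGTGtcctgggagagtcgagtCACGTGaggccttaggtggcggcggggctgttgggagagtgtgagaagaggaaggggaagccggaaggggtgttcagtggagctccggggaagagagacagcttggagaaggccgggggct

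These windows are chr5:110810032-110810331 (minus strand) for Ulk1, chr4:148448332-148448631 (plus strand) for Mtor, chr7:99141095-99141394 (minus strand) for Uvrag, chr7:101302039-101302338 (minus strand) for Atg16l2, chr6:129532942-129533241 (plus strand) for Gabarapl1 and chr16:45158579-45158878 (plus strand) for Atg3. The motifs, searched on both strands, were CACGTG, the E-box that TFEB and many other factors bind, the CLEAR element of TFEB targets, which is that E-box with GT before it and AC after it, TGACNNNGC, the core of the antioxidant response element bound by NRF2, and GTAAACA, a forkhead site. Windows were found for 30 members, of which 5 had more than 1, giving 36 windows. The Atg3 window held 2 E-boxes, the nearest to the 5′ end starting 94 bases before the start site. The other 5 windows printed held no match. Of the members' windows, 4 of 36 held the E-box (in Atg3, Atg5, Atg7 and Atg14), or 11.1%, against 7.15% of all 32851 windows. The CLEAR element was found in 0 of the members' windows and in 0.326% of all windows. It was searched as exact letters only, and at that share 36 windows were likely to hold none. Its absence therefore cannot show whether these genes have TFEB sites. The forkhead site was found in 0 of the members' windows and in 3.65% of all windows. The antioxidant response core stood in 3 of the members' windows (in Atg13, Ulk2 and Map1lc3b), or 8.33%, against 12.4% of all windows.

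The initiation complex held the largest share of calls among the roles with more than 2 members, with 3 of 5 members higher. Ulk1 (ENSMUSG00000029512.11, chromosome 5, 110784488 to 110810097, minus strand, GRCm38), the kinase that starts autophagosome formation, had 208, 207, 249, 206 and 216 CPM in Fbp1-deleted replicates 6 to 10, against 85.3, 102, 122, 114 and 98.8 CPM in WT replicates 1 to 5. All Fbp1-deleted livers lay far above the highest WT liver. The means were 217 ± 18.2 CPM in Fbp1-deleted and 104 ± 14.1 CPM in WT liver (SD, n = 5 each), a change of 1.06 (SE 0.11, adjusted p = 4.19e-05), or 2.08-fold higher. Ulk2, the paralog of Ulk1, averaged 34.2 ± 4.75 CPM in Fbp1-deleted and 31.7 ± 5.97 CPM in WT liver (SD, n = 5 each), and its change of 0.11 (95% interval -0.19 to 0.41, adjusted p = 0.612) did not pass. The ratio of Ulk1 to Ulk2 CPM was 4.99 to 7.30 in Fbp1-deleted livers and 2.67 to 3.78 in WT livers, without overlap between the groups. It restates the separate levels of both genes and is not a further result.

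The ULK1 partners ATG13 and FIP200 (Rb1cc1) also rose at the transcript level. Atg13 (ENSMUSG00000027244.14, chromosome 2, 91674618 to 91710576, minus strand), the regulatory subunit phosphorylated by mTORC1, had 73.4, 79.0, 51.4, 82.0 and 65.7 CPM in Fbp1-deleted replicates 6 to 10, against 35.5, 39.3, 53.6, 51.6 and 44.3 CPM in WT replicates 1 to 5. Fbp1-deleted replicate 8 fell inside the WT range and the other 4 lay above it. The change was 0.65 (SE 0.15, adjusted p = 0.00738). Rb1cc1 (ENSMUSG00000025907.14, chromosome 1, 6206197 to 6276648, plus strand), the scaffold of the complex, had 48.3, 37.6, 36.6, 50.5 and 61.8 CPM in Fbp1-deleted replicates 6 to 10, against 30.0, 29.2, 32.8, 35.6 and 25.3 CPM in WT replicates 1 to 5, a change of 0.62 (SE 0.15, adjusted p = 0.01). The groups did not overlap, although Fbp1-deleted replicates 7 and 8 lay close to the highest WT liver. Atg101, which stabilises ATG13, stood at 33.0 ± 3.40 CPM in Fbp1-deleted and 33.1 ± 1.66 CPM in WT liver (SD, n = 5 each), with a change of -0.01 (95% interval -0.21 to 0.20). Of the complex, Ulk2 and Atg101 were thus not called.

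**Figure D2:**
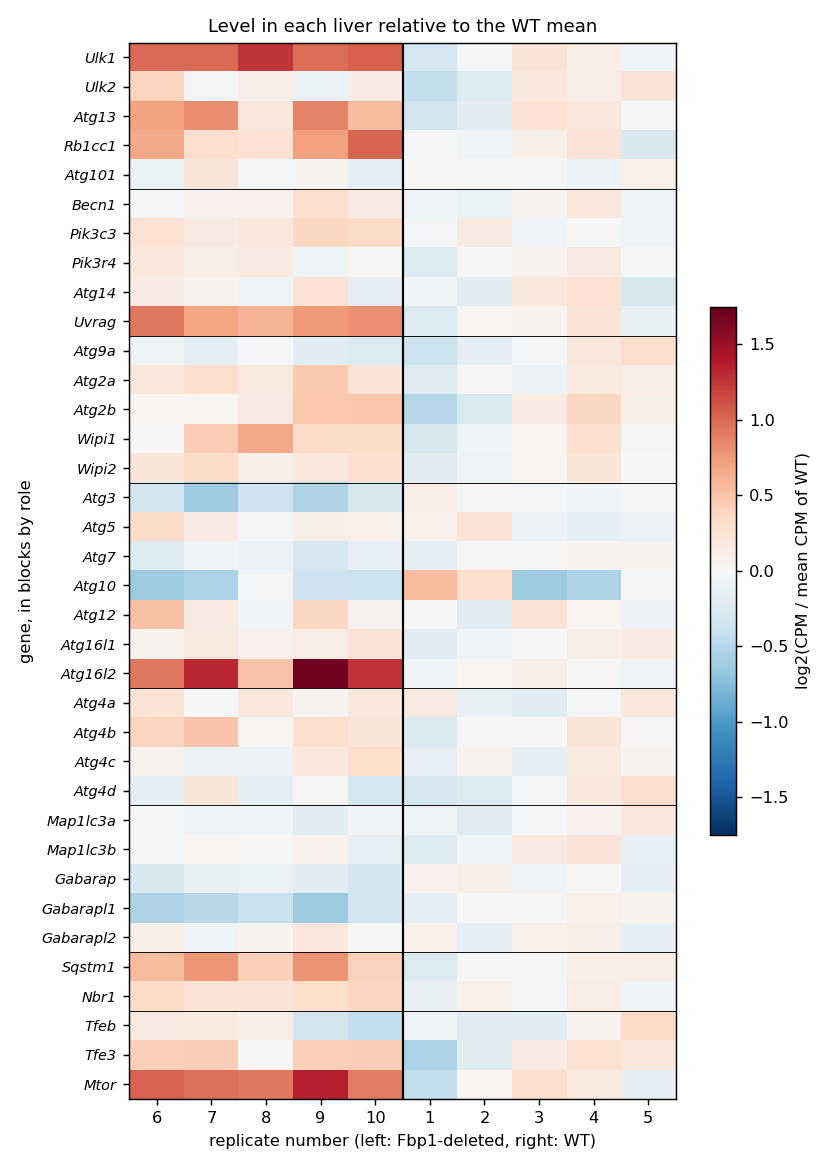
Level of each member in each liver as log2 of CPM over the mean CPM of WT livers, with Fbp1-deleted replicates 6 to 10 left of WT replicates 1 to 5 and lines between the roles. Ulk1, Uvrag, Atg16l2, Sqstm1 and Mtor are above the WT mean in all 5 Fbp1-deleted livers, and Atg16l2 is palest there in replicate 8.

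In the phosphatidylinositol 3-kinase complex, 1 of 5 members rose. Uvrag (ENSMUSG00000035354.9, chromosome 7, 98885021 to 99141141, minus strand), which takes the place of ATG14 in the form of the complex that acts on endosomes and in autophagosome maturation, had 50.5, 43.1, 40.1, 44.6 and 46.3 CPM in Fbp1-deleted replicates 6 to 10, against 22.4, 27.2, 27.8, 31.1 and 24.4 CPM in WT replicates 1 to 5. The lowest Fbp1-deleted liver stood well above the highest WT liver. The change was 0.76 (SE 0.11, adjusted p = 0.00045), or 1.69-fold higher. Atg14, which directs the complex to the site of autophagosome formation, had 24.2 ± 2.80 CPM in Fbp1-deleted and 23.4 ± 3.81 CPM in WT liver (SD, n = 5 each) and did not pass (change 0.05, 95% interval -0.22 to 0.32). The Uvrag to Atg14 ratio of CPM was 1.87 ± 0.229 in Fbp1-deleted and 1.15 ± 0.146 in WT liver (SD, n = 5 each), without overlap between the groups. This ratio, too, restates the separate levels of both genes.

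The shared core of the complex did not pass the test. Becn1, which encodes Beclin 1, had 54.2, 58.6, 58.5, 67.7 and 61.1 CPM in Fbp1-deleted replicates 6 to 10, against 52.6, 51.1, 57.3, 63.8 and 51.9 CPM in WT replicates 1 to 5. The groups overlapped and the change was 0.12 (95% interval -0.09 to 0.32, adjusted p = 0.422). Pik3c3, the catalytic subunit VPS34, stood at 21.6 to 24.8 CPM in Fbp1-deleted livers and 18.2 to 21.6 CPM in WT livers, without overlap but by a narrow margin. Its change of 0.26 missed the threshold (adjusted p = 0.0531) and passed with DESeq2 (0.0409), without robust shrinkage (0.0447) and without Fbp1-deleted replicate 7 (0.0497). Pik3r4, the regulatory subunit VPS15, had a change of 0.08 (adjusted p = 0.594).

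None of the 5 members that bring lipid to the growing membrane or bind its phosphatidylinositol 3-phosphate passed with edgeR, DESeq2 or limma-voom, and 3 had an unadjusted p under 0.05, all higher. The fitted changes were 0.28 for the lipid transfer protein gene Atg2a (adjusted p = 0.0662), 0.25 for its paralog Atg2b (0.282), 0.37 for Wipi1 (0.0757) and 0.23 for Wipi2 (0.108), whose products bind phosphatidylinositol 3-phosphate. Atg9a, which encodes the membrane-spanning lipid scramblase of the pathway, had a change of -0.14 (0.43). For Atg2a the groups did not overlap, with 90.1 to 109.8 CPM in Fbp1-deleted livers and 68.6 to 89.7 CPM in WT livers. Atg2a and Wipi1 passed without WT replicate 4 (adjusted p = 0.046 and 0.0359, edgeR), and Wipi1 also without Fbp1-deleted replicate 6 (0.0461).

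Among the 7 conjugation enzymes 1 rose and 1 fell. Atg16l2 (ENSMUSG00000047767.17, chromosome 7, 101263034 to 101302251, minus strand), a paralog of the scaffold ATG16L1 that binds the ATG12 and ATG5 conjugate, had 18.5, 24.4, 13.9, 31.4 and 23.5 CPM in Fbp1-deleted replicates 6 to 10, against 9.35, 10.1, 10.5, 9.78 and 9.21 CPM in WT replicates 1 to 5. WT livers were close together, while Fbp1-deleted livers spread widely and replicate 8 lay nearest to WT. The means were 22.3 ± 6.59 CPM in Fbp1-deleted and 9.78 ± 0.529 CPM in WT liver (SD, n = 5 each), a change of 1.19 (SE 0.18, adjusted p = 0.000619), the largest among the members. Atg16l1 did not pass, with 43.8 ± 2.23 CPM in Fbp1-deleted and 39.8 ± 3.64 CPM in WT liver (SD, n = 5 each) and a change of 0.14 (95% interval -0.06 to 0.34). The ratio of Atg16l2 to Atg16l1 CPM was 0.329 to 0.723 in Fbp1-deleted livers and 0.210 to 0.268 in WT livers.

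Atg3 (ENSMUSG00000022663.3, chromosome 16, 45158785 to 45188538, plus strand) encodes the enzyme that passes LC3-type proteins to the membrane lipid. It had 49.1, 39.7, 47.7, 42.5 and 50.8 CPM in Fbp1-deleted replicates 6 to 10, against 66.6, 60.2, 60.0, 59.8 and 61.0 CPM in WT replicates 1 to 5. All Fbp1-deleted livers lay below the lowest WT liver, and WT replicate 1 stood above the other WT livers. The change was -0.42 (SE 0.09, adjusted p = 0.007), or 1.34-fold lower. Atg7, the activating enzyme upstream of ATG3, had 33.1 ± 2.20 CPM in Fbp1-deleted and 37.1 ± 2.43 CPM in WT liver (SD, n = 5 each) and did not pass (change -0.16, adjusted p = 0.213). Atg10, which joins ATG12 to ATG5 and was the member with the lowest CPM, had a change of -0.38 (adjusted p = 0.302). Atg5 and Atg12, the joined pair, had changes of 0.13 and 0.22 (adjusted p = 0.401 and 0.225). The 4 members with an E-box in the promoter window named above had changes of -0.42, 0.13, -0.16 and 0.05 for Atg3, Atg5, Atg7 and Atg14.

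None of the 4 ATG4 proteases, which trim LC3-type proteins before conjugation and release them afterwards, passed with edgeR, DESeq2 or limma-voom, and 1 had an unadjusted p under 0.05. The changes were 0.13 for Atg4a, 0.29 for Atg4b, 0.08 for Atg4c and -0.07 for Atg4d, with adjusted p of 0.513, 0.0814, 0.699 and 0.755. Atg4b passed without WT replicate 4 (adjusted p = 0.0461, edgeR) or Fbp1-deleted replicate 8 (0.0331).

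**Figure D3:**
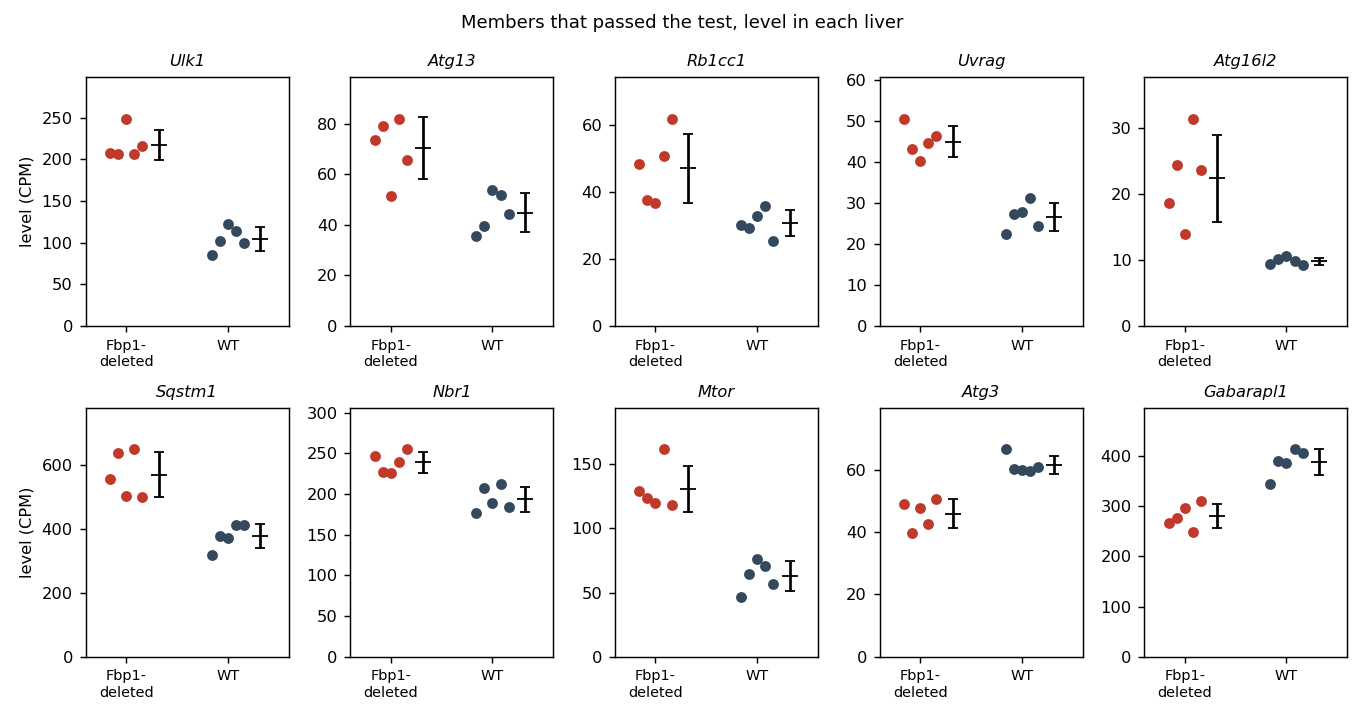
Level in CPM in each liver (points; axes start at 0) of the 10 members that passed the test, Fbp1-deleted left of WT, with the mean and SD of each group beside the points. The groups overlap for Atg13 alone, where Fbp1-deleted replicate 8 at 51.4 CPM lies within the WT range.

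In the LC3 and GABARAP family, whose products are attached to the autophagosome membrane and bind cargo receptors, 1 of 5 members fell and 0 rose, and edgeR, DESeq2 and limma-voom gave the same counts. At an unadjusted p under 0.05, 2 were lower and 0 higher. Gabarapl1 (ENSMUSG00000030161.8, chromosome 6, 129533160 to 129542346, plus strand) had 267, 276, 297, 249 and 311 CPM in Fbp1-deleted replicates 6 to 10, against 345, 389, 386, 413 and 407 CPM in WT replicates 1 to 5. Every Fbp1-deleted liver lay below every WT liver. The means were 280.0 ± 24.4 CPM in Fbp1-deleted and 388 ± 26.8 CPM in WT liver (SD, n = 5 each), a change of -0.47 (SE 0.10, adjusted p = 0.00438), or 1.39-fold lower. Map1lc3b, which encodes the common autophagosome marker LC3B, had 141, 149, 144, 152 and 132 CPM in Fbp1-deleted replicates 6 to 10, against 123, 139.6, 163, 169.7 and 131 CPM in WT replicates 1 to 5. The Fbp1-deleted values lay inside the WT range, and the change was -0.01 (95% interval -0.24 to 0.21, adjusted p = 0.945). Gabarap changed by -0.21 and missed the threshold (adjusted p = 0.112), and passed as lower when libraries were scaled by their totals alone (change -0.30, adjusted p = 0.0354). Map1lc3a and Gabarapl2 had changes of -0.08 and 0.05 (adjusted p = 0.583 and 0.748).

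To compare levels between genes, CPM were divided by the length in kilobases of the gene's longest APPRIS principal transcript. On that scale, of the level per length, Gabarapl1 was the highest of the family in both groups, with 154 ± 13.4 CPM per kilobase in Fbp1-deleted and 213 ± 14.7 in WT liver (SD, n = 5 each). Gabarap followed with 98.4 ± 6.27 CPM per kilobase in Fbp1-deleted and 114 ± 7.88 in WT liver, and Map1lc3b with 56.8 ± 3.12 in Fbp1-deleted and 57.3 ± 7.97 in WT liver. Map1lc3a and Gabarapl2 stood lower, at 28.3 ± 1.17 and 21.2 ± 1.46 CPM per kilobase in Fbp1-deleted and 29.9 ± 2.99 and 20.5 ± 2.03 in WT liver. As a share of the family's summed level per length, Gabarapl1 made up 42.9% ± 2.75 in Fbp1-deleted and 49.0% ± 1.95 in WT liver (SD, n = 5 each). Fbp1-deleted replicate 10 (47.1%) overlapped the WT range (46.5% to 51.9%). Map1lc3b made up 15.9% ± 1.15 in Fbp1-deleted and 13.2% ± 1.33 in WT liver (SD, n = 5 each). For Map1lc3b the groups overlapped, at 14.4% to 17.4% in Fbp1-deleted and 11.9% to 14.7% in WT livers. Such shares are relative, so the fall of Gabarapl1 raises those of the other members. The mean shares of Map1lc3a, Gabarap and Gabarapl2 were also higher in Fbp1-deleted liver (7.89%, 27.5% and 5.92%) than in WT liver (6.88%, 26.2% and 4.71%).

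Both cargo receptors rose. Sqstm1 (ENSMUSG00000015837.15, chromosome 11, 50199366 to 50210827, minus strand), which encodes p62, a receptor for ubiquitinated cargo that is itself degraded by autophagy, had 557, 638, 505, 649.8 and 502 CPM in Fbp1-deleted replicates 6 to 10, against 319, 377, 371, 411 and 412 CPM in WT replicates 1 to 5. The groups did not overlap, with replicates 8 and 10 the lowest of the Fbp1-deleted livers. The change was 0.59 (SE 0.11, adjusted p = 0.00287), or 1.51-fold higher. Its level per length, 280.0 ± 34.7 CPM per kilobase in Fbp1-deleted and 186 ± 18.7 in WT liver (SD, n = 5 each), was the highest of the members in Fbp1-deleted liver and stood below Gabarapl1 in WT liver. The ratio of Sqstm1 to Map1lc3b CPM was 3.51 to 4.27 in Fbp1-deleted livers and 2.28 to 3.14 in WT livers. Nbr1 (ENSMUSG00000017119.19, chromosome 11, 101552149 to 101581951, plus strand), a related receptor, had 247, 227, 226, 239.8 and 255 CPM in Fbp1-deleted replicates 6 to 10, against 176, 207, 189, 212 and 184 CPM in WT replicates 1 to 5. The groups did not overlap, but the change of 0.30 (SE 0.09, adjusted p = 0.0299) lost its call in 9 of 18 alternatives, with adjusted p of up to 0.130, among them the fits without WT replicates 1, 3 or 5 (0.0587 to 0.0792) and without Fbp1-deleted replicates 6, 9 or 10 (0.0643 to 0.0728).

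Of the regulators, Mtor rose and the factors that mTORC1 restrains did not pass. Mtor (ENSMUSG00000028991.15, chromosome 4, 148448611 to 148557683, plus strand), which encodes the kinase of mTORC1 and mTORC2, had 129, 124, 119.7, 162 and 118 CPM in Fbp1-deleted replicates 6 to 10, against 46.8, 64.7, 76.3, 71.0 and 56.7 CPM in WT replicates 1 to 5. Every Fbp1-deleted liver lay well above the highest WT liver, and replicate 9 was above the rest. The means were 130.5 ± 17.9 CPM in Fbp1-deleted and 63.1 ± 11.7 CPM in WT liver (SD, n = 5 each), a change of 1.05 (SE 0.14, adjusted p = 0.000242), or 2.07-fold higher. Tfeb had 18.9, 19.1, 18.4, 13.6 and 12.6 CPM in Fbp1-deleted replicates 6 to 10, against 15.9, 14.8, 14.7, 17.6 and 21.6 CPM in WT replicates 1 to 5. The groups overlapped, with Fbp1-deleted replicates 9 and 10 below the lowest WT liver, and the change was -0.03 (95% interval -0.36 to 0.29, adjusted p = 0.896). Tfe3, the close relative of Tfeb, had 31.6, 31.9, 23.9, 31.6 and 32.1 CPM in Fbp1-deleted replicates 6 to 10, against 16.2, 20.5, 26.1, 28.5 and 27.3 CPM in WT replicates 1 to 5. In 4 Fbp1-deleted livers it stood above the WT range, and in replicate 8 within it. The change of 0.35 did not pass (adjusted p = 0.112) and did without Fbp1-deleted replicate 8 (0.43, adjusted p = 0.0495, edgeR).

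**Figure D4:**
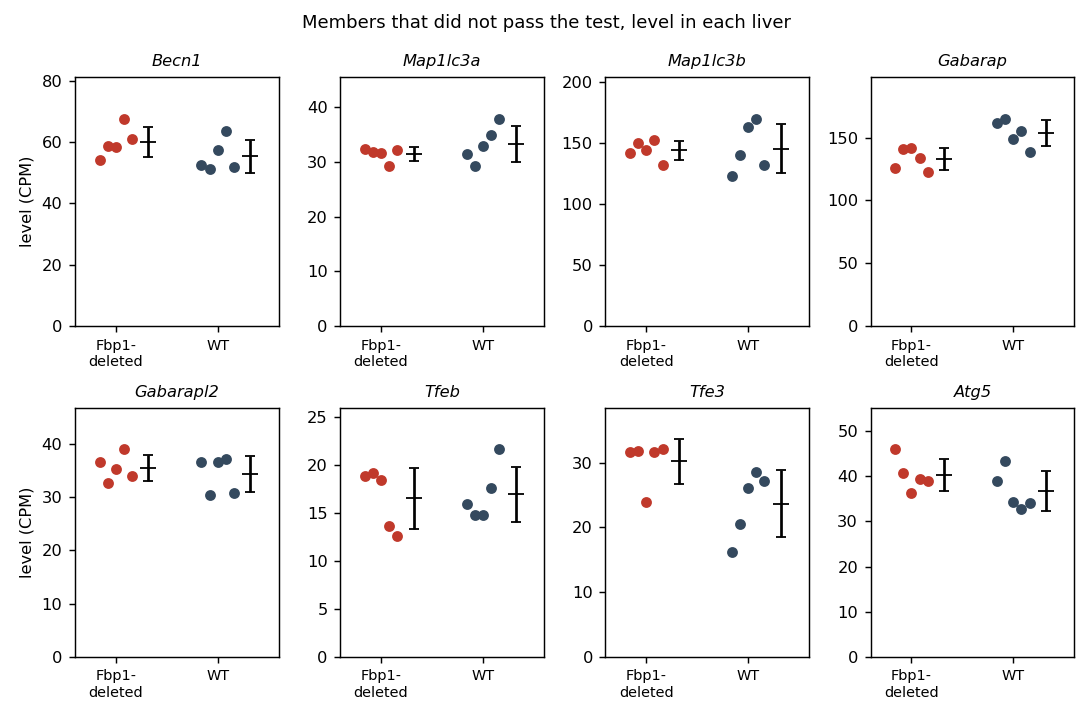
Level in CPM in each liver (points; axes start at 0) of 8 members that did not pass the test, Fbp1-deleted left of WT, with the mean and SD of each group beside the points. The groups overlap in each panel, and for Tfe3 Fbp1-deleted replicate 8 at 23.9 CPM lies apart from the other 4.

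Other genes of the pathway were described by 6 further lists, by counts of calls beside the background given above. Of 30 genes of mTORC1 and its regulators 3 rose and 1 fell, with a median change of 0.06. These were 10% higher and 3.33% lower, against 10.6% and 10% of all genes tested, so calls were no more frequent than over all genes. Ddit4, an inhibitor of mTORC1, rose by 3.87 (SE 0.45, adjusted p = 0.000544) to 189, 242, 53.9, 209 and 290.1 CPM in Fbp1-deleted replicates 6 to 10, against 9.64, 10.5, 20.1, 16.6 and 10.3 CPM in WT replicates 1 to 5, and replicate 8 was the lowest of the Fbp1-deleted livers. Sesn2, a leucine sensor that restrains mTORC1, rose by 0.87 (SE 0.18, adjusted p = 0.00528). Rptor, which encodes the defining subunit of mTORC1, rose by 0.44 (SE 0.13, adjusted p = 0.0278), and did not pass without WT replicate 2 or Fbp1-deleted replicate 6, 9 or 10 (adjusted p = 0.0553 to 0.076). Lamtor4, a subunit of the lysosomal anchor of mTORC1, fell, with a log2 change of -0.29 (SE 0.09, adjusted p = 0.0375), and passed in 10 of 18 alternatives, the others being the fit without the filter (0.108) and those without WT replicates 1, 2, 3 or 5 or Fbp1-deleted replicates 6, 9 or 10 (0.0544 to 0.105). The ratio of Mtor to Rptor CPM was 2.14 to 2.82 in Fbp1-deleted livers and 1.29 to 1.84 in WT livers.

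Among 13 further genes of the early steps 2 rose and 0 fell with edgeR, with a median change of -0.01. In all, 15.4% were called, against 20.6% of all genes tested, of which 10.6% were higher. DESeq2 called 3 higher and 0 lower, limma-voom 2 and 0, and at an unadjusted p under 0.05 there were 5 and 2. With upper quartile scaling 1 fell, and with total scaling 2. Nrbf2, which encodes a subunit of the ATG14 form of the phosphatidylinositol 3-kinase complex, had 46.6, 47.7, 40.6, 51.4 and 56.5 CPM in Fbp1-deleted replicates 6 to 10, against 19.9, 21.2, 26.2, 27.2 and 21.5 CPM in WT replicates 1 to 5. The groups lay far apart and the change was 1.06 (SE 0.12, adjusted p = 7.51e-05), close to that of Ulk1. Ambra1, which binds Beclin 1, rose by 0.36 (SE 0.10, adjusted p = 0.0247), which did not pass without Fbp1-deleted replicate 6 or 9 (0.0571 and 0.0651), without the filter on low counts (0.0629) and with library totals (0.0703).

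Of 18 other receptors of selective autophagy 7 rose and 2 fell, with a median change of 0.24. Their shares were 38.9% higher and 11.1% lower, against 10.6% and 10% of all genes tested. Retreg1, the receptor for endoplasmic reticulum also called FAM134B, had 143, 109, 108, 198 and 192 CPM in Fbp1-deleted replicates 6 to 10, against 55.7, 64.8, 69.0, 75.0 and 55.0 CPM in WT replicates 1 to 5, a change of 1.23 (SE 0.18, adjusted p = 0.000718). Ncoa4, the ferritin receptor, rose by 0.85 (SE 0.18, adjusted p = 0.0059), Stbd1, a proposed glycogen receptor, by 0.78 (SE 0.13, adjusted p = 0.00116), and Optn, which encodes the ubiquitin-binding receptor optineurin, by 0.70 (SE 0.11, adjusted p = 0.000672). For these 4 genes the groups did not overlap. The 2 that fell were Bnip3 at -0.51 (adjusted p = 0.00606) and Fkbp8 at -0.42 (adjusted p = 0.0152), and the other 3 that rose were Calcoco1 at 0.38 (adjusted p = 0.0138), Tax1bp1 at 0.40 (adjusted p = 0.0149) and Bcl2l13 at 0.53 (adjusted p = 0.0161), all 5 named after their values were seen. Of these Bnip3, Fkbp8 and Bcl2l13 encode receptors on mitochondria, with changes in both directions.

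None of 15 genes of fusion between autophagosome and lysosome was called by edgeR, DESeq2 or limma-voom, with a median change of 0.15. Over all genes tested edgeR called 20.6%. At an unadjusted p under 0.05, 3 of the 15 were higher and 0 lower, against 5324 of all 15392 genes in either direction. Without WT replicate 4 or Fbp1-deleted replicate 7, 1 gene of fusion passed as higher. Of 24 lysosomal genes reported as carrying CLEAR elements 1 rose and 6 fell, with a median change of -0.06. Higher genes made up 4.17% and lower genes 25%, against 10.6% and 10% of all genes tested. Gusb, which encodes beta-glucuronidase, rose by 0.81 (SE 0.14, adjusted p = 0.0017). Ctsa, which encodes cathepsin A, fell, with a log2 change of -0.48 (SE 0.11, adjusted p = 0.00946). Scpep1, a serine carboxypeptidase gene, changed by -0.50 (SE 0.13, adjusted p = 0.0197) and missed the threshold in the fits that left out Fbp1-deleted replicate 6 or 7 (0.0604 and 0.0508). The count of genes that fell was 2 without Fbp1-deleted replicate 6 and 3 without Fbp1-deleted replicate 7 or 9 or WT replicate 2, and 4 to 6 without any other library. Of 13 transcription factors known to act on autophagy genes 2 rose and 1 fell (15.4% and 7.69%, against 10.6% and 10% of all genes tested). Ppargc1a, a coactivator induced by fasting, rose by 2.67 (SE 0.30, adjusted p = 0.000266), and Xbp1, a factor of the unfolded protein response, changed by -0.52 (SE 0.15, adjusted p = 0.0283), passing in all but the fits that left out Fbp1-deleted replicate 6 or 10 (0.0575 and 0.062). Ddit3, which encodes CHOP, rose by 2.23 (SE 0.67, adjusted p = 0.0462) but lost its call in 12 of 18 alternatives, among them each fit without a WT library or without Fbp1-deleted replicate 6, 7 or 9 (0.0819 to 0.108), and stood at 5.53 and 7.22 CPM in Fbp1-deleted replicates 8 and 10, within the WT range of 5.35 to 8.59 CPM. A further entry of Ddit3 in the deposited data was not tested, and these values do not include it.

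**Figure D5:**
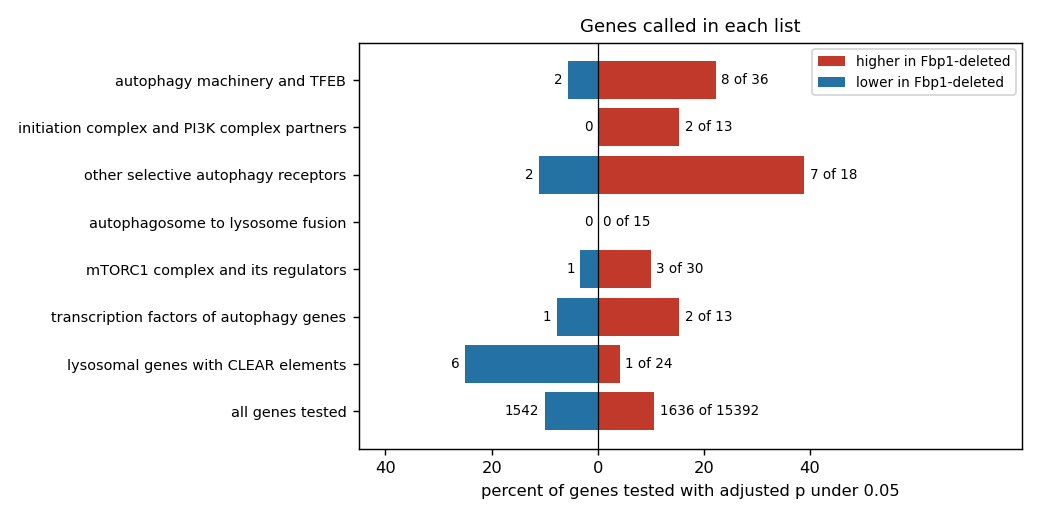
Percent of genes tested with adjusted p under 0.05, higher (right) and lower (left) in Fbp1-deleted liver, for the 36 members, 6 related lists and all 15392 genes tested, with counts beside the bars. The receptors have 7 of 18 genes higher, and the lysosomal list has 6 of 24 lower.

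In bulk liver, fewer cells of a type and less RNA per cell cannot be told apart. Of 6 hepatocyte markers 0 rose and 1 fell, Cyp2e1 at -0.48 (adjusted p = 0.0175) without overlap of the groups, with sums of 74964 to 87737 CPM in Fbp1-deleted livers and 52959 to 93494 CPM in WT livers. Of 6 Kupffer cell and macrophage markers 0 rose and 2 fell (Vsig4 and Csf1r), and their summed level was 127 to 192 CPM in Fbp1-deleted livers and 172 to 233 CPM in WT livers. Of 5 T and B cell markers tested among 7, 2 fell, with sums of 2.98 to 4.36 CPM in Fbp1-deleted livers and 4.37 to 9.89 CPM in WT livers. Stellate cell markers summed to 182 to 246 CPM in Fbp1-deleted livers and 137 to 207 CPM in WT livers, with 1 of 5 higher (Dcn), and sinusoidal endothelial markers to 120 to 196 CPM in Fbp1-deleted livers and 169 to 198 CPM in WT livers, with 1 of 5 higher (Lyve1). The other 4 endothelial markers had negative fitted changes, with a median over the 5 of -0.25. At an unadjusted p under 0.05 there were 4 macrophage markers lower, 2 T and B cell markers lower, 3 stellate cell markers higher, 1 endothelial marker higher and 2 lower, and 1 hepatocyte marker lower. Of 5 cholangiocyte markers, and of the 2 neutrophil markers tested among 4, 0 were called by edgeR. DESeq2 called 1 neutrophil marker lower, limma-voom 1 cholangiocyte marker higher, and at an unadjusted p under 0.05 there were 3 cholangiocyte markers (1 higher, 2 lower) and 1 neutrophil marker (lower). The lists had sums of 12.9 to 22.2 and 1.23 to 6.13 CPM in Fbp1-deleted livers and 16.5 to 28.9 and 3.49 to 9.94 CPM in WT livers. Ly6g stood at 0.121 CPM or less in every library. The part of these cells in the changes of the autophagy genes was not tested.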

How the data were processed

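Polyadenylated RNA of 10 livers was sequenced, per the labels' protocols, from libraries that do not keep the strand. Estimated counts for each gene were deposited, and CASAVA, Salmon and GRCm38 are the names in the submitters' processing notes. The name of the deposited table also gives Salmon. The series' design text describes a further route, with STAR, featureCounts and DESeq2. Whether counts were adjusted for transcript length is not given in the sources used here. All values were whole numbers. Symbols, positions and transcript lengths came from GENCODE M21, which matched all but 37 rows, and promoter windows from RefSeq.

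The test was edgeR 4.0.16 under R 4.3.3 (filterByExpr, TMM, robust quasi-likelihood, group as the only term), which kept 15392 genes and all 36 members. The SE is the size of the log2 change over the root of its F statistic. Alternatives were RLE, upper quartile and total scaling, no filter, a filter of 1 CPM in 5 libraries, DESeq2 1.42.0, limma-voom 3.58.1, no robust shrinkage, an adjusted p of 0.01, and each library left out. The fit was tested on simulated data. Fewer genes were changed there than were called here, and no conclusion is drawn from it. The members and lists were chosen with earlier results of these data known. All members are named, and of each list the called genes with the 4 smallest adjusted p. Cell type lists are given by counts, sums and some called markers. For list genes named outside this rule the text says so, and some genes that the rule would name are not reported here.

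Of the members, 25 shared under 4% of their 31-base words with any 1 other gene. Becn1 shared 39.6% with Cntd1, Gabarapl1 25.2% with 1700101I11Rik, Uvrag 16.6% with Gm45187 and Sqstm1 16.3% with Mrnip, partners at 3.73 CPM or less in all libraries, Atg9a 30.5% with Gm29253 (up to 4.67 CPM), Atg4d 16.5% with Kri1 (up to 15.0 CPM) and Atg4a 60.8% with the pseudogene Atg4a-ps, listed at 0. Counts of such pairs, split by Salmon without strand, are uncertain. Libraries of a group differed by a chi-square of at least 16.2 per degree of freedom, above sampling noise.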

Additional observations from a re-analysis of the deposited data

Results flagged for a closer look

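In 7 of the values named, 1 liver stood apart from the other 4 of its group by more than 0.71 of the group's range, among 108 sets of 5 values examined. Chance alone flags about 1 in 20 such sets. Ulk1 stood at 249 CPM in Fbp1-deleted replicate 8, against 206 to 216 CPM in the other 4. Tfe3 stood at 23.9 CPM in the same liver, against 31.6 to 32.1 CPM. Mtor stood at 162 CPM in Fbp1-deleted replicate 9, against 118 to 129 CPM, and Map1lc3a at 29.2 CPM there, against 31.6 to 32.4 CPM. In WT replicate 1, Atg3 stood at 66.6 CPM, against 59.8 to 61.0 CPM in the other 4, and Atg7 at 32.8 CPM, against 37.7 to 38.8 CPM. Xbp1 stood at 269 CPM in WT replicate 4, against 146 to 179.5 CPM.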

How the results depend on the processing

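Of the 10 called members 9 kept their call in all 18 alternative fits (the exception, Nbr1, is described above), and 6 of the other 26 passed in at least 1 fit, with no called member reversed. The stricter threshold is not among those 18 fits. At an adjusted p under 0.01 in the main edgeR fit, 6 members were higher, as Nbr1 (0.0299) and Rb1cc1 (0.01003) did not pass. Members called higher numbered 6 to 11 and lower 2 to 3 over the alternatives, and 10 and 2 without Fbp1-deleted replicate 8. Over all genes, an adjusted p of 0.01 left 678 higher and 633 lower, and leaving out libraries gave 1066 to 2060 higher and 1019 to 1858 lower. Genes higher were 51.5% of all calls with TMM, 40.3% with upper quartile and 37.7% with total scaling, which moved the median of all genes by -0.07 and -0.09. Under total scaling 7 members were higher and 3 lower. Counts in the 6 related lists moved by at most 4 genes in any alternative. No paired analysis was made, because the labels name no pair or block that links livers of both groups. Atg10, the member with the fewest counts (41 to 103 a library), had the widest interval (SE 0.25).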
